A study of Mus musculus with 4 samples.

Results

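The genes described here are 7 members of the mouse immunity-related GTPase (IRG) family: Irgm1, Irgm2, Igtp, Ifi47, Iigp1, Tgtp1 and Tgtp2. They were taken by name from the 34745 Ensembl genes of the deposited table, and all 7 had a row and passed the filter on low counts. The names were chosen with earlier results of these data known, so tallies of changed genes below are descriptions. RNA was sequenced from bone marrow-derived macrophages of C57BL/6 mice, cells grown from marrow in culture. A pair of libraries came from cells transfected with Acly-E14 small interfering RNA (siRNA) and a pair from cells transfected with control siRNA, and all 4 were treated with lipopolysaccharide (LPS). What the Acly-E14 label stands for beyond Acly, the gene of ATP-citrate lyase, is not spelled out in the labels. The LPS dose and time, the age and number of mice, and whether the libraries came from separate cultures are absent from the labels and protocols used here. A p-value below therefore speaks only of the spread between these particular libraries, which may be technical. No group without LPS or without siRNA was analysed here, so the values show a difference between siRNAs and not a response to LPS.

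Immunity-related GTPases are large cytosolic GTPases that macrophages make in quantity after exposure to interferons, including the type I interferon that cells secrete after LPS. The effectors (GKS class), here Iigp1 (protein name Irga6), Tgtp1 and Tgtp2 (both Irgb6) and Ifi47 (Irgd), carry a lysine in the first GTP-binding loop and collect on the vacuoles of parasites such as Toxoplasma and of Chlamydia, where some of them help to break the vacuole membrane. The regulators (GMS class), here Irgm1, Irgm2 and Igtp (Irgm3), carry a methionine in that place, sit on the membranes of the cell's own organelles and hold the effectors in their inactive form. Targeting of the vacuole also involves guanylate-binding proteins, which are related interferon-induced GTPases, and the conjugation machinery of autophagy.

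The codon that divides the family into regulators and effectors was read from the longest reading frame of each gene's transcript in the GENCODE M21 annotation, because the grouping of the results rests on it. Capitals mark the codon that follows the glycine of the loop, and each stretch is printed 5′ to 3′ on the transcript.
Irgm1: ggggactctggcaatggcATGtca
Irgm2: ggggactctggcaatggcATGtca
Igtp: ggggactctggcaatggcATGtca
Ifi47: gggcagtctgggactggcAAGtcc
Tgtp1: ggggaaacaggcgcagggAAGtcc
Tgtp2: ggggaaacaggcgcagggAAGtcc
The 3 regulators had the same stretch, with ATG for methionine at codon 89 of Irgm1, codon 89 of Irgm2 and codon 97 of Igtp. The effectors had AAG for lysine, at codon 87 of Ifi47, codon 69 of Tgtp1, codon 69 of Tgtp2 and codon 82 of Iigp1. The reading frames of Tgtp1 and Tgtp2 were 99.7% identical, with 4 of 1248 aligned bases different. Irgm2 and Igtp were 73.1% identical, and the pairs of Irgm1 with Igtp and with Irgm2 were 68.7% and 67.3% identical. The other pairs lay between 57.9% and 64.8%.

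Promoter windows from 250 bases before to 50 bases after the start site were found in the RefSeq table (GRCm38.p6) for 6 of the 7 genes, all but Iigp1. They are shown because genes that answer to interferon can carry either or both of a pair of element types. One is the gamma-activated site (GAS, searched as TTCNNNGAA), an element of genes that answer to interferon gamma, and the other is the interferon-stimulated response element (ISRE, core searched as GAAANNGAA), which a factor containing IRF9 binds. Both strands were searched, capitals mark the matches, and each stretch is printed 5′ to 3′ on the strand of the gene.
Irgm1, chr11:48871416-48871470, minus strand: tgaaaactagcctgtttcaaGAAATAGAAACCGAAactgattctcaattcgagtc
Irgm2, chr11:58214882-58214941, plus strand: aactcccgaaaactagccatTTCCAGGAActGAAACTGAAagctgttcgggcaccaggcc
Igtp, chr11:58199491-58199550, plus strand: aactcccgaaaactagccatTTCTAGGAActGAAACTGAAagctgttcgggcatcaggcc
Tgtp1, chr11:48992295-48992354, minus strand: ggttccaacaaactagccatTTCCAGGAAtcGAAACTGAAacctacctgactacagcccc
Tgtp2, chr11:49064254-49064313, minus strand: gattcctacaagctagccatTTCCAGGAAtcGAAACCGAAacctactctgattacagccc
Irgm2, Igtp, Tgtp1 and Tgtp2 each had a GAS followed after 2 bases by an ISRE core. The GAS began 75, 45, 88 and 81 bases before the start site in that order. Irgm1 had 2 ISRE cores that overlap each other, beginning 30 and 24 bases before the start site, and no match to the GAS letters. The Ifi47 window held 0 matches to either set of letters, and Ifi47 has 5 annotated transcripts in GENCODE M21. Each window covers a single start site of its gene, and other start sites were not searched. The Irgm2 window, from chr11:58214727, lies within its GENCODE M21 gene, which begins at chr11:58199618. The minus-strand windows of Irgm1 (chr11:48871371-48871670) and Tgtp1 (chr11:48992197-48992496) also lie within their GENCODE M21 genes. On that strand these genes begin at chr11:48871683 for Irgm1 and at chr11:48994172 for Tgtp1. Among 32851 windows of the same length, 8.30% held a GAS match, 8.56% an ISRE core match and 1.07% both. The spaced arrangement, which was searched for after these sequences had been seen, was found in 8 windows (0.0244%), those of Irgm2, Igtp, Tgtp1, Tgtp2, the related gene Gm12185, the RNA editing gene Adar, Olfr382 and a predicted locus. A match is a description of letters and not a bound site.

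In the GENCODE M21 annotation of mm10, 6 of the 7 genes lie in a pair of clusters on chromosome 11. Irgm1 spans chr11:48861968-48871683, Tgtp1 chr11:48985327-48994172 and Tgtp2 chr11:49057194-49064206, all on the minus strand, and Ifi47 spans chr11:49076587-49096974 on the plus strand. Igtp (chr11:58199556-58207591) and Irgm2 (chr11:58199618-58222782) lie on the plus strand and share 162 bases of exon. Iigp1 stands apart on chromosome 18, at chr18:60376027-60392634 on the plus strand.

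The libraries held 21023197 to 21837806 gene counts, and each of the 7 genes had 7417 to 33151 counts in every library, so that counting error alone was at most 1.16% of a value. Levels below are in CPM, each count divided by the effective library size (the total count times a trimmed-mean, TMM, factor) and expressed per 1000000, and edgeR's quasi-likelihood test was run on 13108 genes. A gene counts as called, and as having changed, where its p under Benjamini-Hochberg adjustment over that whole set was below 0.05. Acly itself read 158 and 154 CPM under control siRNA, and 118 and 127 CPM under Acly-E14 siRNA. Both Acly-E14 libraries lay below both controls. The log2 fold change was -0.35 (SE 0.060, edgeR adjusted p = 0.0086), and the level that remained was 78.3% of control. Without control replicate 1 the Acly value was -0.34 and was not called (edgeR adjusted p = 0.058).

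The identity of the cells was checked against marker lists. Macrophage markers summed to 9931 and 9216 CPM under control siRNA, and to 9280 and 9789 CPM under Acly-E14 siRNA, which overlap. Single markers moved in both directions beneath that sum. Of the 13 tested, 4 were called higher and 5 lower, with log2 fold changes from -0.68 (Cd68) to 1.03 (Cd14). Over all genes tested, 17.3% were called higher and 15.9% lower. Fibroblast and stroma markers summed to 797 and 1215 CPM under control siRNA, and to 2719 and 3403 CPM under Acly-E14 siRNA, with 11 of 12 called higher (7 to 12 on leaving out any 1 library) and 12 of 12 higher in both Acly-E14 libraries than in both controls. T and NK cell markers, the defining genes of cells that secrete interferon gamma, had 7, 25, 21 and 15 counts in all in control 1, control 2, Acly-E14 1 and Acly-E14 2, and 5 of the 10 (Cd3e, Cd8a, Ncr1, Nkg7 and Prf1) were at 0 in all 4. Dendritic cell markers summed to 788 and 761 CPM under control siRNA, and to 726 and 732 CPM under Acly-E14 siRNA. Itgax made up nearly all of that sum, at 782 and 750 CPM in the controls, and 0 of 3 tested genes were called. Neutrophil markers summed to 92.5 and 101 CPM under control siRNA, and to 140 and 139 CPM under Acly-E14 siRNA. Of 3 tested, 2 were called higher and 1 lower. The part of the fibroblast markers in the values below was not tested, and in bulk RNA fewer cells of a type and less RNA per cell cannot be told apart.

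Of the 7 genes, 3 were lower with Acly-E14 siRNA, namely Irgm1, Ifi47 and Irgm2, and 0 were higher. The lower count was 1 without control replicate 1, 2 without control replicate 2, 3 without Acly-E14 replicate 1 and 2 without Acly-E14 replicate 2, and it was 6 with DESeq2. Over all genes tested, edgeR called 33.2% in either direction, 15.9% lower and 17.3% higher. Both Acly-E14 libraries lay below both controls for 6 of the 7 genes, all but Iigp1, against 35.3% of all genes tested. The median log2 fold change of the 7 was -0.16, with a range from -0.49 to 0.04, against a median of 0.00 over all genes tested. Counts divided by the library totals alone, without TMM factors, left 4 of the 7 below both controls, against 27.3% of all genes tested, because Tgtp1 and Tgtp2 then overlapped as well. On those totals the median of the 7 was -0.07, against 0.09 over all genes tested, and the same 3 genes were called lower. The plot of levels by library shows each value.

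**Figure D1:**
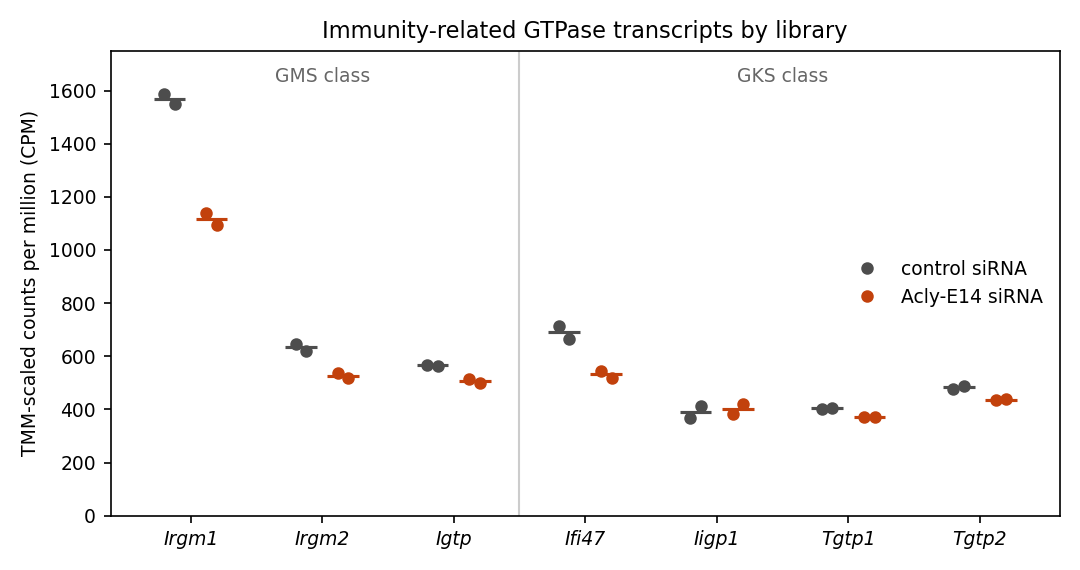
TMM-scaled CPM (vertical axis) of the 7 immunity-related GTPase genes in each library, with control siRNA and Acly-E14 siRNA as separate points and the mean of each group as a line. Irgm1 sits highest in every library, at 1551 and 1586 CPM in the controls and 1092 and 1139 CPM with Acly-E14 siRNA, while the points of Iigp1 overlap.

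Among the regulators, Irgm1 had both the highest count and the deepest fall. Irgm1, which guards lysosomal, Golgi and mitochondrial membranes and whose loss leaves mice open to mycobacteria, read 1586 and 1551 CPM under control siRNA, and 1139 and 1092 CPM under Acly-E14 siRNA. The groups were far apart compared with the gap within either of them. The mean went from 1568 ± 25.4 to 1116 ± 32.9 CPM (SD, n = 2 each), a log2 fold change of -0.49 (SE 0.055, edgeR adjusted p = 0.0027), which left 71.1% of the control level. Irgm1 stayed called under all 10 alternatives run, with log2 fold changes from -0.52 to -0.40 and a highest adjusted p of 0.027.

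Irgm2, a regulator found on the Golgi, read 646 and 621 CPM under control siRNA, and 537 and 517 CPM under Acly-E14 siRNA. All of the Acly-E14 values lay below the controls. The log2 fold change was -0.27 (SE 0.054, edgeR adjusted p = 0.015), or 83.2% of control, and it was -0.17 on library totals (edgeR adjusted p = 0.032). The call was lost without control replicate 1 (edgeR adjusted p = 0.093), without control replicate 2 (0.0502) and without Acly-E14 replicate 2 (0.082).

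Igtp, the regulator on the endoplasmic reticulum and lipid droplets, read 568 and 564 CPM under control siRNA, and 513 and 500.07 CPM under Acly-E14 siRNA. The groups did not overlap, and the drop was smaller than for the other regulators, although differences between genes were not tested. Its log2 fold change of -0.16 (SE 0.051) missed the threshold, with an edgeR adjusted p of 0.057, at 89.5% of control. On library totals it was -0.07 (edgeR adjusted p = 0.28), while with DESeq2 Igtp was called (adjusted p = 0.0018). Igtp shares 7.80% of its 75-base stretches with Irgm2, and Irgm2 shares 4.53% of its own with Igtp (4.78% with any other gene). Reads from their common exon could therefore have been given to either. Counted as 1 gene, a choice made after seeing the data, Igtp and Irgm2 had a log2 fold change of -0.21 (SE 0.054, edgeR adjusted p = 0.028).

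Among the effectors, Ifi47 fell and the other 3 were not called. Ifi47 read 714 and 666 CPM under control siRNA, and 546 and 517 CPM under Acly-E14 siRNA. The lower control stood well above the higher Acly-E14 library. The log2 fold change was -0.38 (SE 0.062, edgeR adjusted p = 0.0077), or 77.0% of control, and without control replicate 1 it was -0.33 and not called (edgeR adjusted p = 0.054). Exons of Ifi47 share 111 bases with the olfactory receptor gene Olfr56, whose own counts were 13, 2, 39 and 30 over control 1, control 2, Acly-E14 1 and Acly-E14 2, against at least 11324 for Ifi47.

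Tgtp1 read 401 and 406 CPM under control siRNA, and 371 and 372 CPM under Acly-E14 siRNA, and Tgtp2 read 477 and 489 CPM against 435 and 440 CPM. On this scale neither gene's groups overlapped. The log2 fold changes were -0.12 for Tgtp1 (SE 0.049, edgeR adjusted p = 0.117) and -0.14 for Tgtp2 (SE 0.050, edgeR adjusted p = 0.077). On library totals the groups of both genes overlapped, and the values were -0.03 for Tgtp1 (edgeR adjusted p = 0.69) and -0.05 for Tgtp2 (edgeR adjusted p = 0.46). DESeq2 called both (adjusted p = 0.027 for Tgtp1 and 0.0069 for Tgtp2). The genes encode nearly the same protein, and 77.2% of the 75-base stretches of Tgtp1 and 81.4% of those of Tgtp2 occur in another gene, so the division of reads between them is uncertain. Their sum, which does not depend on how the counted reads were divided, had a log2 fold change of -0.13 with an edgeR adjusted p of 0.098, and of -0.04 on library totals (edgeR adjusted p = 0.55).

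Iigp1, the effector that coats the parasite vacuole and oligomerises there, read 368 and 413 CPM under control siRNA, and 384 and 420 CPM under Acly-E14 siRNA. The groups overlapped, and the gap within each was wider than the gap between their means. The log2 fold change was 0.04 (SE 0.078, edgeR adjusted p = 0.71). It was 0.13 on library totals (edgeR adjusted p = 0.28), and its sign turned to -0.04 without control replicate 1 and to -0.02 without Acly-E14 replicate 2. Iigp1 shared 0% of its 75-base stretches exactly with any other annotated gene. Shorter or inexact matches were not searched, so read sharing with its relatives is not excluded.

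**Figure D2:**
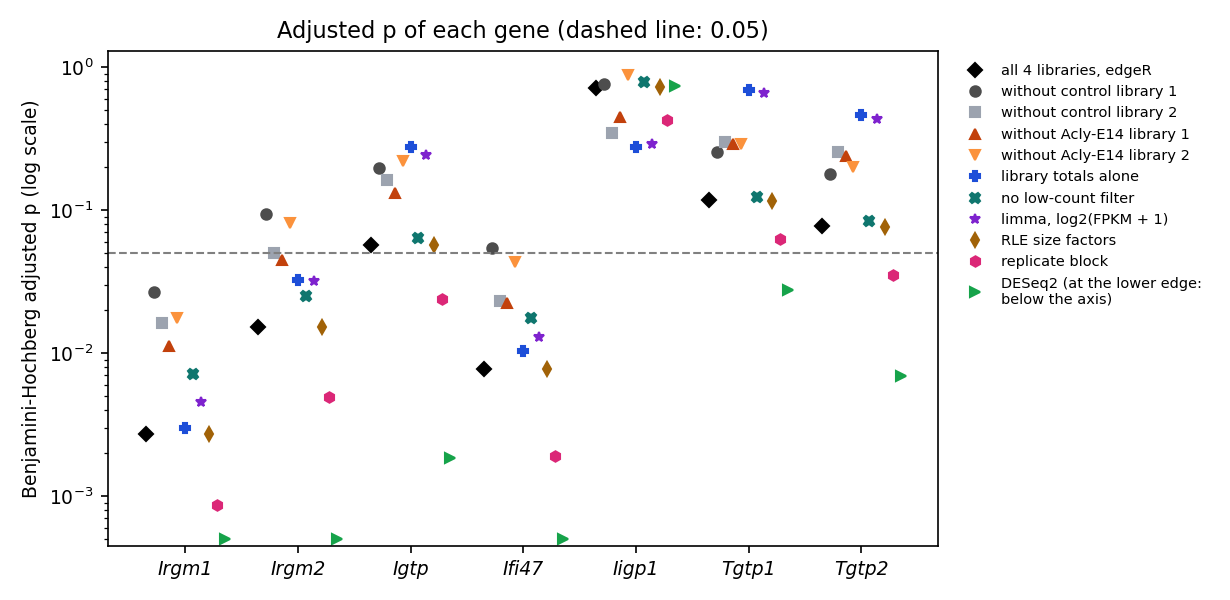
Benjamini-Hochberg adjusted p (vertical axis, log scale) of each of the 7 genes in the edgeR fit of all 4 libraries, without each library in turn, and under 6 other settings named in the key, with 0.05 as a dashed line and DESeq2 values too small for the axis drawn at its lower edge. Irgm1 lies below the line at every setting shown, Irgm2 and Ifi47 cross it when single libraries are left out. Igtp, Tgtp1 and Tgtp2 fall below it with DESeq2, Igtp and Tgtp2 also with the replicate block, and Iigp1 stays above it.

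The summed level of the regulators was lower by a larger share than that of the effectors. Irgm1, Irgm2 and Igtp summed to 2800 and 2736 CPM under control siRNA, and to 2189 and 2110 CPM under Acly-E14 siRNA, which is 77.7% of control. The 4 effectors summed to 1960 and 1974 CPM and to 1736 and 1749 CPM, which is 88.6%. On library totals these shares were 82.7% and 94.4%. The count of regulators over effectors was 1.43 and 1.39 in the controls and 1.26 and 1.21 in the Acly-E14 libraries, with no overlap (two-sided exact permutation test over the 4 libraries, p = 0.333, the smallest p this design allows).

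The separation of that ratio rested on Irgm1. With Irgm1 left out, regulators over effectors stood at 0.619 and 0.600 in the controls and at 0.605 and 0.582 in the Acly-E14 libraries, and the groups overlapped (two-sided exact permutation p = 0.667). With Iigp1 left out instead, the ratio was 1.76 and 1.75 in the controls and 1.62 and 1.59 with Acly-E14 siRNA, again without overlap. Irgm1 over Igtp, a ratio within 1 library that no scaling between libraries can move, was 2.79 and 2.75 in the controls and 2.22 and 2.18 in the Acly-E14 libraries. Irgm1 over Iigp1 was 4.31 and 3.76 in the controls and 2.96 and 2.60 in the Acly-E14 libraries. Against the effector Ifi47 the regulators went both ways. Irgm1 over Ifi47 went from 2.22 and 2.33 in the controls to 2.09 and 2.11 with Acly-E14 siRNA. Irgm2 over Ifi47 rose from 0.905 and 0.932 to 0.984 and 1.0, and Igtp over Ifi47 from 0.796 and 0.846 to 0.941 and 0.967.

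Which gene was most abundant per length depended on the gene length used. With CPM per kilobase of merged exon in GENCODE M21, Igtp (279.9 ± 1.63), Ifi47 (279 ± 13.5) and Irgm1 (270 ± 4.37, SD, n = 2) led in the control libraries, and Ifi47 overlapped both of the others. Irgm2 followed at 172 ± 4.66, Tgtp2 at 164 ± 2.87 and Tgtp1 at 126 ± 0.976 on that scale, and Iigp1 was lowest at 67.1 ± 5.37. On the FPKM scale, with the gene lengths that the deposited values imply, Irgm1 led with a control mean of 208 and Ifi47 came next at 161, followed by Tgtp2 at 147, Iigp1 at 121, Igtp at 107, Tgtp1 at 103 and Irgm2 at 88.5. The scales use different lengths. For Igtp the FPKM values imply 5121 bases, the sum of its annotated exons with overlapping ones counted separately, where merging them gives 2022, and Tgtp1 and Tgtp2 match such sums too. For Irgm1 (7304 implied bases, 5810 merged, 8173 summed), Irgm2 (6929, 3690 and 10457), Ifi47 (4159, 2473 and 6581) and Iigp1 (3121, 5823 and 11504) the implied length matched neither, so the source of these lengths is unknown and the order on the FPKM scale rests on them. Fold changes between the groups do not depend on the length.

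Other genes of the family were taken from a list of relatives, of which 10 had a row and 8 were tested. Of these, 3 were called higher, 1 was called lower and 4 missed the threshold, with a median log2 fold change of 0.18. The shares over all genes tested were 17.3% higher and 15.9% lower. Gm5431, a family gene next to Irgm1, read 431 and 414 CPM under control siRNA, and 298 and 285 CPM under Acly-E14 siRNA. Its log2 fold change of -0.53 (SE 0.055, edgeR adjusted p = 0.0023) was close to that of Irgm1. Gm5431 and F830016B08Rik, which follows, stayed called under all 10 alternatives.

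F830016B08Rik, listed in RefSeq with the synonym Ifgga4, moved the other way. It read 20.7 and 26.0 CPM under control siRNA, and 51.0 and 56.5 CPM under Acly-E14 siRNA, with a log2 fold change of 1.20 (SE 0.126, edgeR adjusted p = 0.0023). On the genome it lies in the cluster of Iigp1, together with Gm4951 (0.18, edgeR adjusted p = 0.101) and Gm4841 (0.18, edgeR adjusted p = 0.45), which were not called. Gm12185 rose by 0.45 on the log2 scale (edgeR adjusted p = 0.015) from 20.9 and 22.6 to 28.8 and 30.6 CPM, and Irgq, a family protein thought to lack GTPase activity, rose by 0.58 (edgeR adjusted p = 0.010) from 17.9 and 20.6 to 27.9 and 29.6 CPM. Both calls were lost without control replicate 1 and without Acly-E14 replicate 2, with adjusted p from 0.074 to 0.079 for Gm12185 and from 0.0503 to 0.0539 for Irgq. Gm12185 shares 223 bases of exon with Tgtp1, so some of its counts could belong to that gene.

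9930111J21Rik1, which lies between Irgm1 and Tgtp1, was not called (log2 fold change -0.12, edgeR adjusted p = 0.205), nor was 9930111J21Rik2 (-0.45, edgeR adjusted p = 0.234), which had 29 to 42 counts. Gm12187 and Irgc1, the latter a gene of testis, had at most 6 and 4 counts in any library and were not tested. Along chromosome 11, Irgm1 and Gm5431 fell by similar amounts, while Gm12185, the next gene in order, was higher.

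**Figure D3:**
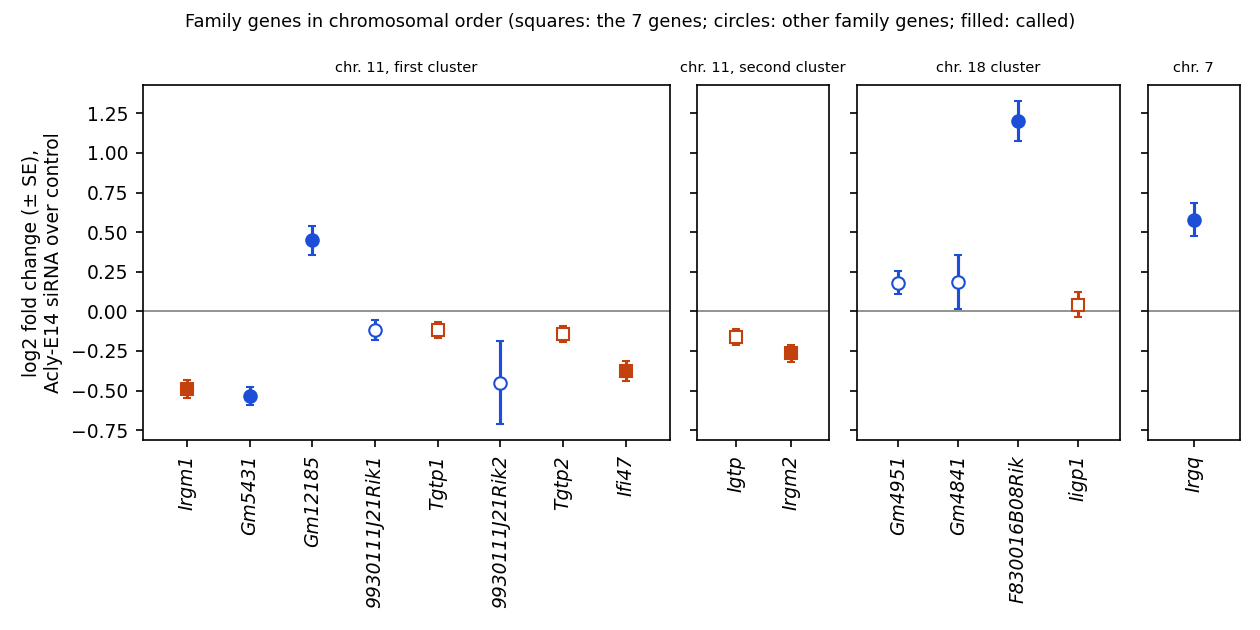
Log2 fold change of Acly-E14 siRNA over control (vertical axis, ± SE) for family genes in chromosomal order, with a panel per cluster, squares for the 7 genes, circles for the other family genes and filled symbols for called genes. Irgm1 (-0.49) and Gm5431 (-0.53) are the lowest called genes and F830016B08Rik (1.20) is the highest.

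A list of 26 interferon ligands, receptors and signalling genes, which holds inhibitors as well as activators, had 23 tested genes. Of these, 10 fell, 3 rose and 10 missed the threshold, and the median log2 fold change was -0.22. The shares over all genes tested were 15.9% lower and 17.3% higher. Tyk2, a kinase of the type I interferon receptor, read 212 and 215 CPM under control siRNA, and 150 and 139 CPM under Acly-E14 siRNA, a log2 fold change of -0.56 (edgeR adjusted p = 0.0024). Irf9, the DNA-binding subunit of the factor that binds the ISRE, went from 176 and 169 CPM to 122 and 116 CPM (-0.54, edgeR adjusted p = 0.0026). Usp18, an interferon-induced brake on receptor signalling, changed by -0.37 (edgeR adjusted p = 0.0047), and Socs3, an inhibitor of cytokine receptor signalling, rose by 0.28 (edgeR adjusted p = 0.010). Tyk2, Irf9 and Usp18 stayed called under all 10 alternatives, and the Socs3 call was lost on leaving out either control library or Acly-E14 replicate 2 (edgeR adjusted p from 0.051 to 0.074).

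Chosen after their values were seen, Irf1 had a log2 fold change of -0.29 (edgeR adjusted p = 0.033) and Ifnb1, the gene of interferon beta, -0.73 (edgeR adjusted p = 0.043, from 108 and 100 counts in the controls to 74 and 58). Both were picked from the 10 genes of the list that fell, while 3 others rose and 10 were not called, so the pair does not stand for the list. The Ifnb1 call was lost on leaving out any of the 4 libraries, and the Irf1 call on leaving out either control library or Acly-E14 replicate 2. Both calls were also lost on library totals and without the filter on low counts, and the Irf1 call with limma. On library totals 7 genes of the interferon list were lower, with limma 7 and without the filter 8. The number of lower genes in the interferon list was 3 without control replicate 1, 6 without control replicate 2, 7 without Acly-E14 replicate 1 and 3 without Acly-E14 replicate 2. Ifng, Ifna4 and Ifna2 had 0 counts in all 4 libraries, which allows up to 3 counts, or 0.143 CPM on the library total in the shallowest library. The level of interferon protein was not measured.

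Genes of guanylate-binding proteins, which load onto the same vacuoles, were called about as often in each direction as all genes tested (17.3% higher and 15.9% lower). Of 11 tested, 2 rose, 2 fell and 7 missed the threshold, and the median log2 fold change was 0.08. Gbp4 rose by 0.53 on the log2 scale (edgeR adjusted p = 0.0031), from 188 and 202 CPM to 290 and 273 CPM, and Gbp10 rose by 0.82 (edgeR adjusted p = 0.0088), from 7.70 and 9.31 to 14.2 and 15.8 CPM. Gbp2 had a log2 fold change of -0.22 (edgeR adjusted p = 0.032) and Gbp3 -0.21 (edgeR adjusted p = 0.045), and both of these calls were lost on leaving out any 1 library and on library totals. The Gbp10 call was lost without Acly-E14 replicate 2 (edgeR adjusted p = 0.0507).

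A list of factors of autophagy and ubiquitin tagging, some of which help to place the GTPases or mark the vacuole, held 20 tested genes. It also takes in Ulk1, Becn1 and Stx17, autophagy genes outside the conjugation machinery. Of the 20 genes, 7 fell, Ulk1 and Stx17 among them, 0 rose and 13 missed the threshold. Over all genes tested, 15.9% were lower and 17.3% higher. The median log2 fold change of the list was -0.13. Trim21, a ubiquitin ligase and antibody receptor of the cytosol, fell furthest in the list. It read 355 and 333 CPM under control siRNA, and 134 and 125 CPM under Acly-E14 siRNA, a log2 fold change of -1.41 (SE 0.065, edgeR adjusted p = 0.00058). Sqstm1, the autophagy receptor p62, changed by -0.44 (edgeR adjusted p = 0.0047), Rnf213, a ubiquitin ligase of pathogen surfaces, by -0.40 (edgeR adjusted p = 0.011) and Atg12, a conjugation factor, by -0.24 (edgeR adjusted p = 0.022). The number of lower genes was 3 without control replicate 1, 3 without control replicate 2, 3 without Acly-E14 replicate 1 and 2 without Acly-E14 replicate 2, and the Atg12 call was lost in each case. It was also 3 on library totals (where Atg12 was lost too), 3 with limma and 4 without the filter on low counts. Trim21 and Sqstm1 stayed called throughout, and the Rnf213 call was lost without control replicate 1 and without Acly-E14 replicate 2 (edgeR adjusted p from 0.056 to 0.059).

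**Figure D4:**
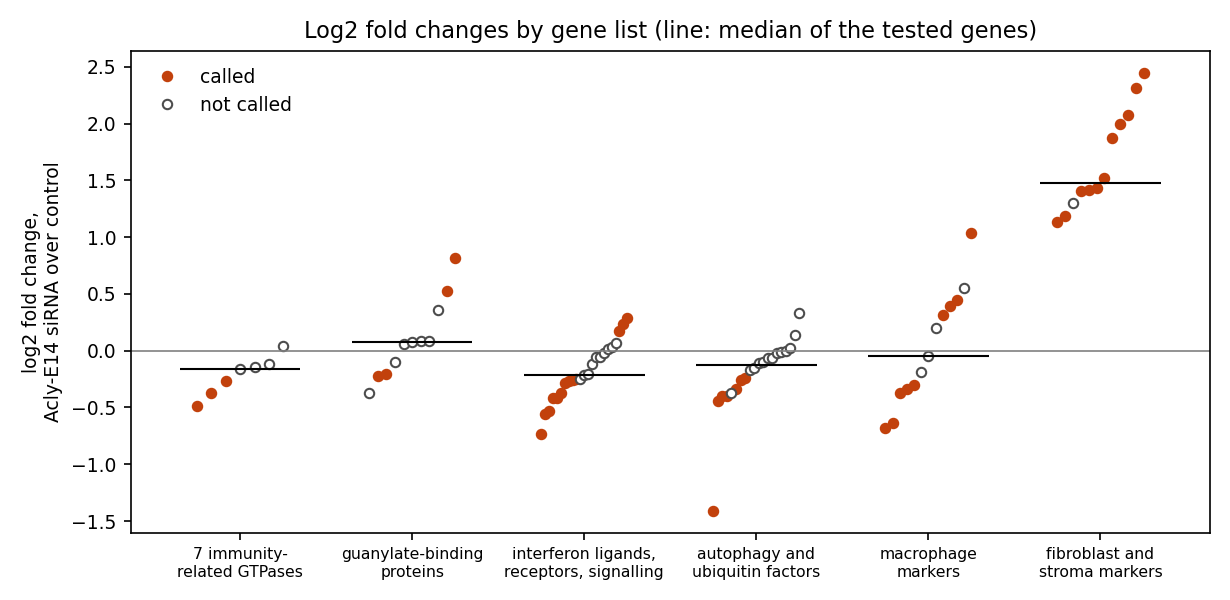
Log2 fold change of Acly-E14 siRNA over control (vertical axis) for each tested gene of 6 lists, with filled points for called genes and a line at each list's median. The medians lie at -0.16 for the 7 immunity-related GTPases, 0.08 for the guanylate-binding proteins, -0.22 for the interferon list, -0.13 for the autophagy and ubiquitin list, -0.04 for macrophage markers and 1.48 for fibroblast and stroma markers.

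The mean profile of the 7 genes over the 4 libraries, in log2 CPM centred on each gene's mean, was 0.11 in both controls and -0.10 and -0.11 in the Acly-E14 libraries. Among 7545 genes searched, those with the smallest root mean square difference from it were Dym (0.00387), Trappc13 (0.00461), Rap1a (0.00466), Ube2q1 (0.00718) and Ddx54 (0.00858, in log2 units over 4 libraries). The 7 genes themselves lay between 0.030 for Igtp and 0.150 for Iigp1 from their own mean, so the mean profile describes Igtp better than it describes Iigp1 or Irgm1 (0.140).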

How the data were processed

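RNA was sequenced from 4 macrophage libraries, 2 per siRNA. The authors deposited unnormalized whole-number counts for each gene, per the file headers, beside FPKM values, which matched FPKM computed from the counts with 1 length per gene. HISAT2, StringTie 1.3.0, edgeR and the build mm10 are named in the submitters' processing notes. Which program counted the reads, whether it used strand and on which annotation is not stated there, and the labels' protocols name both a stranded total RNA kit and a kit with capture beads for mRNA. A column of FPKM values without a replicate number in its name was left out (1 column).

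Differences in counts were tested in R 4.3.3 with edgeR 4.0.16. Genes passing filterByExpr (minimum count 10) were scaled with TMM factors, and the groups were compared by the quasi-likelihood F test without covariates, which had also been tested on simulated data. Standard errors (SE) are those implied by the F statistic. With 2 libraries per group, an exact permutation test cannot give a two-sided p below 0.333. Alternatives were other scalings, no filter, DESeq2 1.42.0, limma 3.58.1 on log2(FPKM + 1) with FPKM recomputed from counts and implied lengths, a replicate block, another threshold and leaving out each library. Named genes were the 7, Acly, other family genes with a count and at most the 4 genes of smallest p per list. The 5 genes nearest the mean profile, among those with a mean of at least 10 CPM, were named too. Irf1 and Ifnb1 lie outside this rule and were chosen after their values were seen. Further genes were named only for counts of 0, for shared or matching sequence or to say what a list holds. The members and lists were chosen with earlier results of these data known, so their counts are descriptions. Gene models came from GENCODE M21 and promoters from RefSeq. A gene of the interferon list is not reported here by name.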

Additional observations from a re-analysis of the deposited data

How the results depend on the processing

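Of the 7 genes, 3 were called lower in the reported fit, 5 with the replicate block, 6 with DESeq2, 5 at an adjusted p under 0.1, and 1 to 3 on leaving out 1 library (1 without control replicate 1). With the replicate block, Igtp (-0.16, edgeR adjusted p = 0.024), Tgtp2 (-0.14, edgeR adjusted p = 0.035) and the sum of Tgtp1 and Tgtp2 (-0.13, edgeR adjusted p = 0.035) passed the threshold. The labels do not say that a replicate number marks a shared culture, and with 2 pairs the deviations of same-numbered libraries (correlation 0.144) do not settle it. DESeq2 called Igtp (-0.16), Tgtp1 (-0.12), Tgtp2 (-0.14) and that sum (-0.13). Igtp summed with Irgm2, chosen after seeing the data, gave -0.21. On leaving out 1 library, log2 fold changes ranged from -0.29 to -0.24 for Irgm2, from -0.43 to -0.33 for Ifi47, from -0.40 to -0.30 for Acly and from -0.04 to 0.12 for Iigp1, whose sign turned without control replicate 1 (-0.042) and without Acly-E14 replicate 2 (-0.024), and calls over the whole table from 2088 (without Acly-E14 replicate 2) to 3215, against 4354. Scaling by library totals moved the median of all genes to 0.09 and left the 3 calls in place, with values of -0.40 for Irgm1, -0.28 for Ifi47 and -0.17 for Irgm2. Irgm2, although still called, and Igtp (-0.07), Tgtp1 (-0.03) and Tgtp2 (-0.05) shrank by more than 1.5 times, and Iigp1 moved to 0.13.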
